A study of Mus musculus with 8 samples.

Results

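The heat shock chaperones described here are 10 genes, Hspa1a, Hspa1b, Hspa2, Hspa8, Hsph1, Dnajb1, Hsp90aa1, Hspd1, Hspe1 and Bag3, of 56859 genes in the deposited tables, and all 10 were found by symbol. With the channel-blocking peptide 10panx1, Hspa2 transcripts in BV2 cells at 9 h averaged 1.59 ± 0.289 CPM (counts scaled to library size), against 4.04 ± 1.16 CPM in control cells (SD, n = 3 each), and every 10panx1 library lay below every control library. The most abundant of the 10, Hsp90aa1, Hspa8 and Hspd1, overlapped between these groups, and Dnajb1, Hspe1 and Bag3 were lower with 10panx1 by less than 0.3 on the log2 scale. The genes were chosen by family with results of these libraries in view, and Hspa2 was chosen by its lower read counts with 10panx1 at 9 h. Their values at 9 h and over time are therefore given as a description with no p-value. Threshold calls and intervals for them on these contrasts are printed as part of that description. The change of the 10panx1 difference between times was also tested for them, with a limit for Hspa2 given there.

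Heat shock chaperones bind unfolded proteins and help them fold, and many are induced when proteins are damaged by heat, oxidants or loss of energy. Hsp70 proteins hold a client in cycles of ATP hydrolysis that J proteins start and nucleotide exchange factors end, Hsp90 takes over later folding steps for kinases and receptors, and Hsp60 with its lid Hsp10 folds proteins inside mitochondria. Heat shock factor 1 induces many of these genes through heat shock elements, which are inverted repeats of the letters GAA. In brain, inducible Hsp70 is widely used as a sign of ischaemic stress.

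RNA-seq was made from BV2, a mouse microglial cell line immortalised with oncogenes and labelled WT, and all groups were labelled as exposed to oxygen-glucose deprivation and reperfusion, a culture model of stroke. There were 3 libraries of 10panx1-treated cells and 3 of control cells at 9 h, and 1 library of each at 6 h. 10panx1 is a peptide that copies part of an extracellular loop of pannexin 1 and blocks its channel, so the channel's own transcript is no check of the treatment, and the titles name no control peptide. The titles put 1 library in the 10panx1 group at 6 h although its treatment label does not list the peptide, and whether 6 h and 9 h count deprivation or recovery is not stated. Nothing in the labels says that replicates were separate cultures, so all error values measure only the spread between these libraries, and time cannot be told apart from any batch that went with it.

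Total counts were 18056693 to 23164860 per library, at which 3 counts correspond to 0.13 to 0.166 CPM. Of 10 microglia and macrophage markers, 8 averaged at least 1 TPM (transcript abundance scaled to gene length and library size), including Csf1r and Spi1, while the homeostatic microglia genes P2ry12 and Sall1 stayed at or below 0.685 TPM. The summed TPM of that list was 625 to 641 in 10panx1 cells and 593 to 610 in control cells at 9 h, and 758 in 10panx1 cells and 733 in control cells at 6 h. Control replicate 3 at 9 h stood apart: 82 genes had over 10 times their unscaled count in any other library, with genes of very low count left out. There 8 hepatocyte markers summed to 295 TPM, against at most 5.89 TPM elsewhere. Hpx (265 TPM) and Fgb (19.7 TPM) gave nearly all of that sum, while Alb had 5.39 TPM there, Apoa1, Ttr and Apoh had at most 0.596 TPM in any library and Serpina1a was at 0. In the same library 6 fibroblast markers summed to 17.9 TPM against at most 0.696 TPM elsewhere, with 12.5 TPM from Col1a1, while Dcn and Pdgfra had at most 0.137 TPM in any library and Lum was at 0. Results that rest on this library are given with and without it. Exceptions are correlations, which use all 8 libraries, and Hspa1b over time, given with its range over alternatives.

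Promoter sequence is shown first because some members share a match to a heat shock element near the gene start and others have no match there. RefSeq (GRCm38.p6) windows of 300 bases, 250 before and 50 after the start, were held for 8 of the 10 genes, and Hspa8 and Hsp90aa1 were not matched. Elements of 2 inverted units, written GAANNTTC or TTCNNGAA and each its own reverse complement, were present in windows of 6 of these 8 genes, against 17.0% of 27025 genes and 15.1% of 32851 windows in the table. Elements of 3 units (GAANNTTCNNGAA or TTCNNGAANNTTC, which contain the 2-unit forms) were present for 3 of 8 genes, against 0.662% of all genes. The genes with a 2-unit element were Hspa1a, Hspa1b, Hspd1, Hspe1, Hsph1 and Bag3. A match is a description of letters and not of binding.

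The stretches that carry elements before the start are printed 5′ to 3′ along each gene's strand, with the element letters in capitals. Hspd1 and Hspe1, which encode Hsp60 and Hsp10, are transcribed away from each other, and one stretch at chr1:55088047-55088088 lies before the start of Hspe1 and before 1 of 2 listed starts of Hspd1, shown on the minus strand for Hspd1 and the plus strand for Hspe1. Hspa1a (chr17:34972241-34972272, minus strand) and Hspa1b (chr17:34959323-34959354, minus strand) have the same stretch, and 296 of the 300 bases of their windows were identical. The window of the other Hspd1 start held 0 elements, and the stretch lies after that start. For Hsph1 the stretch at chr5:149636350-149636381 (minus strand) is shown.
Hspd1: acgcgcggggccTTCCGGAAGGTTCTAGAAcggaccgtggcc
Hspe1: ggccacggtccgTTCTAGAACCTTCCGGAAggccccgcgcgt
Hspa1a and Hspa1b: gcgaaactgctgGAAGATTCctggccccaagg
Hsph1: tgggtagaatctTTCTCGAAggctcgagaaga
Counted from the start as position 1, the element of Hspa1a and Hspa1b began at -104, the overlapping elements of Hspe1 at -89, -84 and -79, and the element printed for Hsph1 at -33 from 1 of its listed starts and -54 from another. The 3-unit element of Hsph1 lay after both starts (37 and 42, or 16 and 21), as did the single element of Bag3 at 43.

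Hspa2 and Dnajb1 had neither form in their windows. The 250 bases before the Hspa2 start (chr12:76404120-76404369, plus strand) are printed in full because the values at 9 h described further on turn on this gene, with no capitals since no element was found, which says only that these letters are not in this window.
Hspa2: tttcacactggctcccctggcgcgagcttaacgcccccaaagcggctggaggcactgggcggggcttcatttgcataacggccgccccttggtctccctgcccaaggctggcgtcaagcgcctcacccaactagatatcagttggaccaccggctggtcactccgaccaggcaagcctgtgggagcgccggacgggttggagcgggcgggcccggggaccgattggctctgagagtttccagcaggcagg

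On the per-length TPM scale the 10 genes spanned a wide range (plot of TPM by gene). Hsp90aa1, the inducible form of cytosolic Hsp90, had the highest level with 2520 to 2938 TPM over the 8 libraries and stood at rank 33 of 56859 genes by mean TPM. Hspa8, the constitutive Hsc70, had 1974 to 2273 TPM and rank 44, and Hspd1 had 1517 to 1772 TPM and rank 61. These 3 ranges did not overlap, so their order was the same in all libraries.

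Hspe1 followed with 336 to 455 TPM, then Hsph1, a large Hsp110-type protein that acts as a nucleotide exchange factor, with 109 to 152 TPM. Dnajb1, an inducible J protein of the cytosol, had 92.7 to 116 TPM and overlapped with Hsph1. Bag3, a co-chaperone that links Hsp70 clients to autophagy, had 35.1 to 68.9 TPM.

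The 3 lowest members were all Hsp70 genes. Hspa2, known for its high level in testis and its need in mouse spermatogenesis, had 1.29 to 5.27 TPM, and Hspa1b, a stress-inducible Hsp70, had 0.4 to 3.91 TPM, so the 2 ranges overlapped. Hspa1a, the neighbouring inducible copy, was near zero in every library: it had 0, 0 and 1 counts in 10panx1 cells at 9 h, 0 in each control library at 9 h, 2 in 10panx1 cells at 6 h and 0 in control cells at 6 h. All of these are below 3 counts, so Hspa1a was not detectable at this depth and no fold is given.

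**Figure D1:**
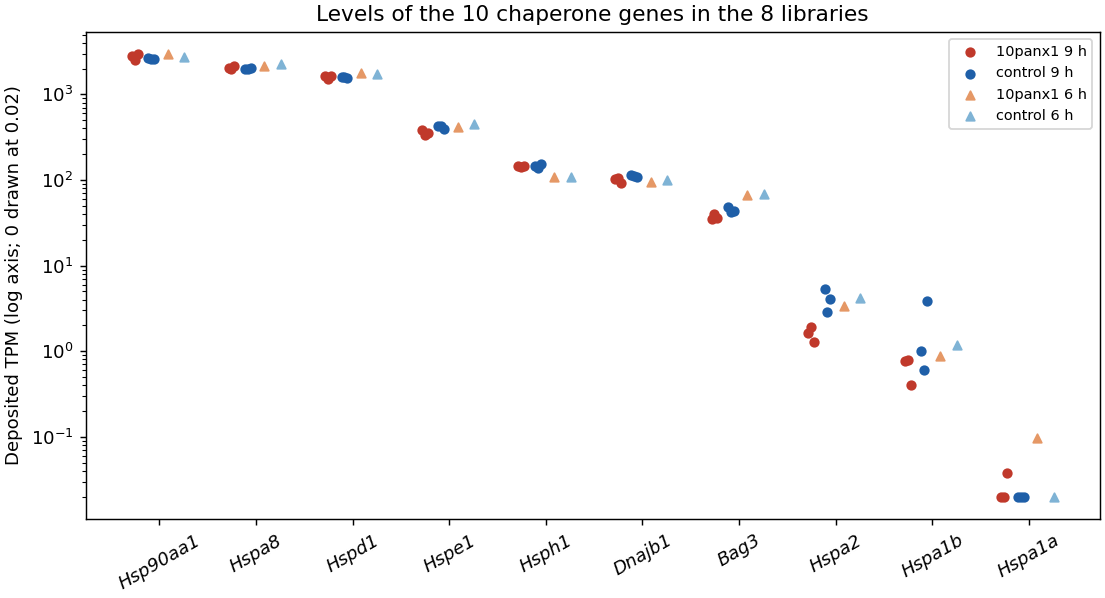
Deposited TPM of the 10 chaperone genes (log axis, values of 0 drawn at 0.02) with 1 point for each of the 8 libraries, 10panx1 and control at 9 h as circles and at 6 h as triangles. Hsp90aa1, Hspa8 and Hspd1 lie between 1517 and 2938 TPM, while Hspa2, Hspa1b and Hspa1a lie at or below 5.27 TPM.

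Summed over the 10 genes, TPM was 7135, 6672 and 7357 in 10panx1 cells and 7006, 6884 and 6886 in control cells at 9 h, and 7533 in 10panx1 cells and 7523 in control cells at 6 h. The sum was 0.667% to 0.753% of all TPM, it overlapped between treatments at 9 h, and both libraries at 6 h lay above all libraries at 9 h. On the TPM scale the median gene was itself lower at 9 h, with a log2 fold change of -0.109 (log2(TPM + 1)). The order of the sums by time is therefore not read as a change of the chaperones. Among Hspa1a, Hspa1b, Hspa2 and Hspa8, Hspa8 made up 99.61% to 99.92% of TPM. The share of Hspa2 was 0.0797%, 0.0947% and 0.0596% in 10panx1 cells against 0.266%, 0.145% and 0.196% in control cells at 9 h, so Hspa2 was a minor part of these transcripts in every library.

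At 9 h, 9 of the 10 genes passed the filter on low counts in the comparison of 10panx1 with control, and Hspa1a did not. Their log2 fold changes (10panx1 over control) ran from -1.47 to 0.07 with a median of -0.18, beside a median of -0.00315 over all 13392 genes tested. The lowest, Hspa1b, was at -0.29 without control replicate 3. By edgeR's quasi-likelihood test with a Benjamini-Hochberg threshold of 0.05, 4 of the 9 were past the threshold, all lower with 10panx1, and 0 higher. Among all genes tested 9.21% were called, 4.14% lower and 5.06% higher. The same 4 genes were without overlap between the groups, all lower, against 15.0% of all genes, and since the choice of genes used this contrast nothing is read from these counts. In bulk RNA, fewer cells of a kind and less RNA per cell cannot be told apart.

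Hspa2 (ENSMUSG00000059970, chromosome 12, plus strand) had 34, 39 and 29 counts in 10panx1 cells against 110, 61 and 76 counts in control cells at 9 h. In CPM scaled by the trimmed mean of M-values (TMM), these were 1.61, 1.87 and 1.30 in 10panx1 cells and 5.22, 2.91 and 4.01 in control cells. Every 10panx1 library was below every control library, and control replicate 1 was the highest of the 6. The means were 1.59 ± 0.289 CPM in 10panx1 cells and 4.04 ± 1.16 CPM in control cells (SD, n = 3 each). The log2 fold change was -1.34 with a standard error (SE) of 0.248. Leaving out each library in turn gave -1.53 to -1.12.

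At 6 h, Hspa2 had 3.08 CPM in the 10panx1 library (58 counts) and 3.84 CPM in the control library (88 counts), a log2 ratio of -0.31 without a replicate. Both values fell within the control range at 9 h and above all 3 libraries with 10panx1 at 9 h. At 9 h 6 neuron markers summed to 1.5 to 1.75 TPM in 10panx1 cells and 2.5 to 3.08 TPM in control cells, a sum carried by Tubb3, with 1.42, 0.858 and 1.44 TPM in 10panx1 cells and 2.01, 2.49 and 2.07 TPM in control cells. Slc17a7, with 0.235, 0.48 and 0.109 TPM in 10panx1 cells and 0.432, 0.272 and 0.347 TPM in control cells, overlapped, as did Map2 at 0.286 TPM or less, and Rbfox3 and Snap25 were at or near 0. At 6 h the list was lowest, with 0.506 TPM in the 10panx1 library and 0.894 TPM in the control library, where Hspa2 was within its control range at 9 h. The part of this list in the Hspa2 difference was not tested. The 8 testis germ cell markers, of which Tnp2 and Prm2 were at 0 throughout, summed to 0.4 to 1.1 TPM in 10panx1 cells and 0.311 to 0.78 TPM in control cells and overlapped. Of the 50-base windows along the longest annotated Hspa2 transcript, 0.0% recurred in the transcript of another gene.

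Hspa1b had 0.851, 0.864 and 0.447 CPM in 10panx1 cells against 1.09, 0.667 and 4.32 CPM in control cells at 9 h. Control replicate 3 was 3.53 times the next highest of all 8 libraries, and the groups overlapped. The means were 0.721 ± 0.237 CPM in 10panx1 cells and 2.03 ± 2.0 CPM in control cells (SD, n = 3 each), and the log2 fold change was -1.47 with an SE of 0.562. Leaving out control replicate 3, in which 82 genes were raised, the control mean was 0.879 CPM and the log2 fold change was -0.29. Hspa1b also shares 62.3% of its 50-base windows with Hspa1a, and how the authors' counting treated reads that fit both copies is not given, so the value of either copy alone is uncertain.

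Hspa8 had 2518, 2470 and 2716 CPM in 10panx1 cells against 2443, 2501 and 2540 CPM in control cells at 9 h, and the groups overlapped. Its log2 fold change of 0.04 had a 95% interval from -0.05 to 0.14. A total of 73.2% of its 50-base windows were found in transcripts of other genes, most of them in the copy Gm15459, so its counts may miss or share reads.

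Among the partners of Hsp70, Dnajb1 had 119.8, 123 and 111 CPM in 10panx1 cells against 136, 134 and 129.8 CPM in control cells at 9 h. The groups did not overlap, and the log2 fold change was -0.18 with an SE of 0.0508. Bag3 had 35.3, 40.1 and 37.0 CPM in 10panx1 cells against 49.2, 42.9 and 44.3 CPM in control cells, also without overlap. Its log2 fold change was -0.28 (SE 0.0752). Hsph1 had 274, 263 and 279.8 CPM in 10panx1 cells against 276, 265 and 285 CPM in control cells. For Hsph1 the groups overlapped almost fully, and its log2 fold change of -0.01 had a 95% interval from -0.11 to 0.08.

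Hsp90aa1 had 3581, 3219 and 3835 CPM in 10panx1 cells against 3448, 3383 and 3329 CPM in control cells at 9 h. The 10panx1 libraries held both the lowest and the highest value, and the log2 fold change of 0.07 had a 95% interval from -0.05 to 0.18. The TPM ratio of Hsp90aa1 to Hsp90ab1, the constitutive Hsp90, was 0.604, 0.518 and 0.653 in 10panx1 cells and 0.573, 0.593 and 0.59 in control cells, again with overlap. For Hsp90aa1, 58.5% of 50-base windows were found in transcripts of other genes.

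In mitochondria, Hsp60 works as a ring closed by Hsp10, and their genes share the promoter stretch printed above. Hspe1 (Hsp10) had 147, 126 and 136 CPM in 10panx1 cells against 159.6, 166 and 152 CPM in control cells at 9 h. All 3 libraries with 10panx1 were below all 3 controls, the means were 137 ± 10.4 CPM in 10panx1 cells and 159 ± 6.98 CPM in control cells (SD, n = 3 each), and the log2 fold change was -0.22 with an SE of 0.0571. Hspd1 (Hsp60) had 1564, 1431 and 1581 CPM in 10panx1 cells against 1528, 1527 and 1492 CPM in control cells. Those groups overlapped, and the log2 fold change of 0.01 had a 95% interval from -0.09 to 0.11.

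The TPM ratio of Hspd1 to Hspe1 was higher in every 10panx1 library than in every control, at 4.23, 4.51 and 4.62, against 3.81, 3.66 and 3.91 in control cells at 9 h. At 6 h it was 4.24 in the 10panx1 library and 3.84 in the control library, the same order without a replicate. The deposited coordinates of Hspd1 and Hspe1 overlap by 112 bases on opposite strands, the strand setting of the counting is not given, and 36.1% of the 50-base windows of Hspe1 and 44.8% of those of Hspd1 recur in other transcripts. Reads near the shared start and in these stretches may thus be assigned to either gene or to a copy.

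**Figure D2:**
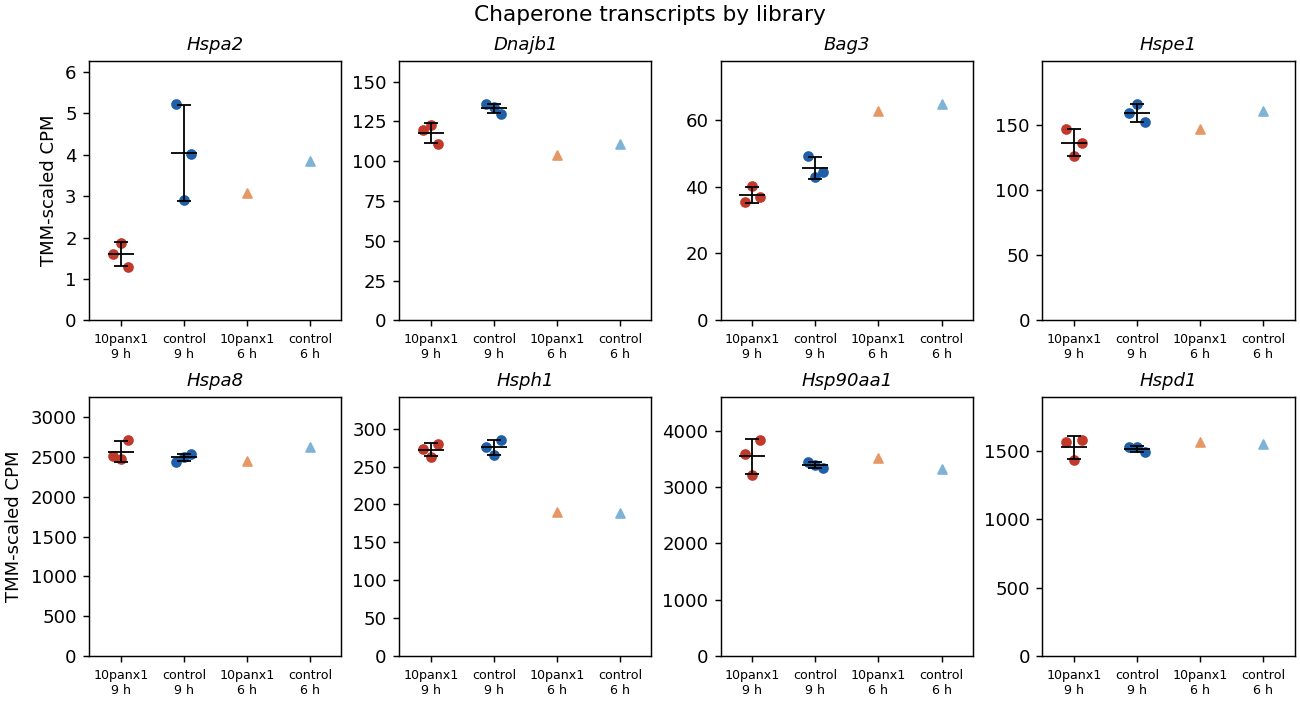
TMM-scaled CPM of 8 chaperone genes in each library, with the mean and SD (n = 3) at 9 h as bars and the single libraries at 6 h as triangles, each panel starting at 0. For Hspa2 the 10panx1 libraries at 9 h lie between 1.30 and 1.87 CPM, below the controls at 2.91 to 5.22 CPM, and for Hsph1 all 6 libraries at 9 h lie above both at 6 h.

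The number of members past the edgeR threshold at 9 h depended on the libraries and the scale, which is given as a description of the contrast the genes were chosen on. Hspa2 missed the threshold with limma on log2(TPM + 1) and log2(TPM + 0.1), with log2 fold changes of -0.94 and -1.26, and Dnajb1, Hspe1 and Bag3 missed it on both of these scales too, with -0.17, -0.22 and -0.27. Dnajb1 also missed it with all 8 libraries in the fit, with -0.18. With edgeR, Dnajb1 missed it without control replicate 1, 2 or 3 or 10panx1 replicate 3, with log2 fold changes of -0.16, -0.17, -0.20 and -0.14. Hspe1 missed it without control replicate 1 or 2 or 10panx1 replicate 2 or 3, with -0.22, -0.19, -0.17 and -0.22. Bag3 missed it without control replicate 1, 2 or 3 or 10panx1 replicate 1 or 3, with -0.22, -0.32, -0.30, -0.24 and -0.27. None of these changed sign. Hspa1b, not past the threshold as reported, was past it without a filter on low counts (-1.47) and without control replicate 2 (-1.89). Both fits held control replicate 3.

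Between 9 h and 6 h the members differed in opposite directions: Hsph1 and Dnajb1 were higher at 9 h and Bag3 was lower. The comparison set all 6 libraries at 9 h against both at 6 h with treatment as a covariate, 9 of the 10 genes were tested, and log2 fold changes (9 h over 6 h) ran from -0.63 to 0.52 with a median of -0.00976. By edgeR 2 of the 9 were called higher at 9 h (Hsph1 and Dnajb1) and 1 lower (Bag3), where 63.1% of all 14315 genes tested were called, 31.6% higher and 31.5% lower. Without overlap 1 gene was higher (Hsph1) and 1 was lower (Bag3), against 30.6% of all genes in each direction and 61.2% in either. The choice of genes was made with this contrast in view, so nothing is read from these counts.

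Hsph1 averaged 274 ± 8.48 CPM at 9 h (SD, n = 6) and 189.8 CPM at 6 h (n = 2), where the 10panx1 library had 190.4 and the control library 189 CPM. The log2 fold change was 0.52 with an SE of 0.0472. Bag3 averaged 41.5 ± 5.08 CPM at 9 h and 63.5 CPM at 6 h, with 62.5 CPM in the 10panx1 library and 64.6 CPM in the control library at 6 h. Its log2 fold change was -0.63 with an SE of 0.0734, and all 6 libraries at 9 h were below both at 6 h.

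Dnajb1 averaged 125 ± 9.5 CPM at 9 h (SD, n = 6) and 107 CPM at 6 h (n = 2), and its log2 fold change was 0.22 (SE 0.0528). The 10panx1 library at 6 h was below all libraries at 9 h, while the control library at 6 h, at 111 CPM, lay just above the lowest at 9 h, so the groups overlapped. Hspa2 averaged 2.82 ± 1.54 CPM at 9 h and 3.46 CPM at 6 h, and its log2 fold change of -0.39 (SE 0.255) was -0.96 without the control library at 6 h and 0.06 without the 10panx1 library at 6 h. Its value over time therefore rested on which treatment stood for 6 h.

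The abundant chaperones were near their levels at 6 h on the TMM scale. Log2 fold changes over time were -0.00976 for Hspa8, 0.02 for Hsp90aa1, -0.04 for Hspd1 and -0.06 for Hspe1, each with an SE of at most 0.0568. On the deposited TPM scale the median of all genes was itself shifted by -0.11 (log2(TPM + 1)), and there Hspa8 and Hsp90aa1 took values down to -0.11 and -0.09, close to that shift. Hspd1 and Hspe1 had -0.15 and -0.17 on that scale, and Dnajb1 had 0.11 and missed the threshold. Over 16 alternatives Hspd1 and Hspe1 were past the threshold in 2 each, Hspa8 in 1 and Hsp90aa1 in 0. Hspa1b, with 10 to 82 counts per library, had 0.27 on the TMM scale with an SE of 0.561. That value includes control replicate 3 at 9 h, at 4.32 CPM, while the other libraries at 9 h had 0.447 to 1.09 CPM. At 6 h the 10panx1 library had 0.901 CPM and the control library 1.22 CPM. Over 16 alternatives the Hspa1b value ran from -0.405 to 0.701 and changed sign in 4, so no direction over time is read from it.

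**Figure D3:**
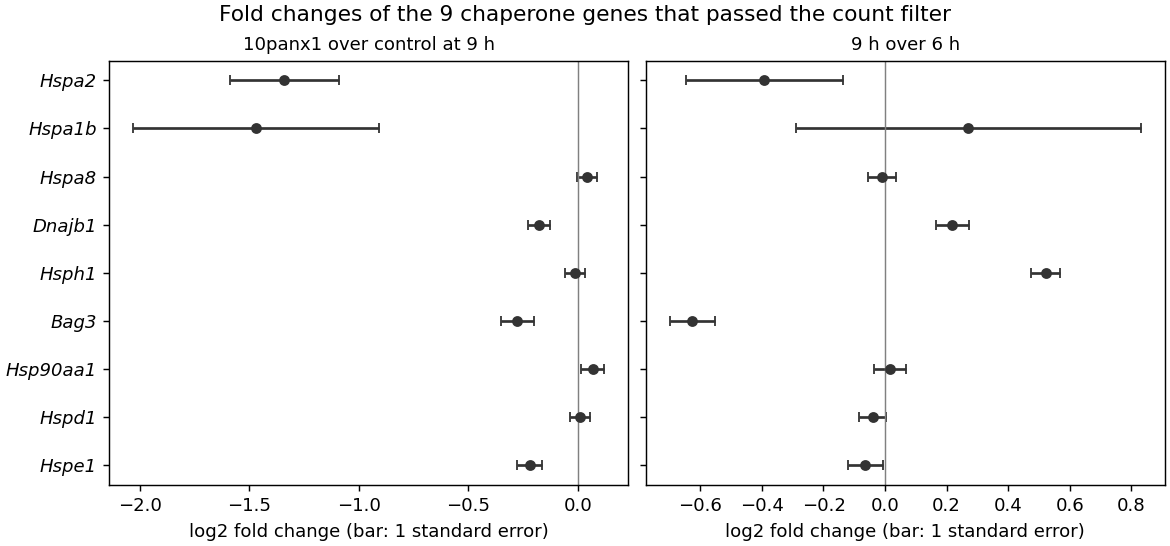
Log2 fold changes of the 9 chaperone genes that passed the count filter, 10panx1 over control at 9 h on the left and 9 h over 6 h on the right, with bars of 1 SE from edgeR. Hspa2 at -1.34 and Hspa1b at -1.47 lie far left of the other genes at 9 h, and Hsph1 at 0.52 and Bag3 at -0.63 lie at the ends over time. Without control replicate 3 at 9 h, which is not drawn, Hspa1b was at -0.29 on the left. On the right the Hspa1b value includes that library, and it changed sign in 4 of 16 alternatives.

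Whether the 10panx1 difference itself changed between 6 h and 9 h was tested with an interaction term in all 8 libraries, which the choice of genes did not use as such although it shares the libraries at 9 h. None of the 9 genes tested was called by edgeR, and 0.0% of all 15331 genes were called (0 genes by edgeR, with 874 at an unadjusted p under 0.05). The estimate for Hspa2 was -1.02 with an SE of 0.461 and a 95% interval from -2.02 to -0.03. Its edgeR p was 0.0449 unadjusted and 0.872 adjusted over all genes, and Hspa2 was the only 1 of the 9 with an unadjusted p under 0.05. Hspa2 was chosen by its lower counts at 9 h, which enter this estimate. Its interval and unadjusted p are therefore biased by the choice, and nothing is read from them. For Bag3 the estimate was -0.23 (edgeR adjusted p = 0.914) and for Hspa8 it was 0.14 (edgeR adjusted p = 0.912). The single library of each treatment at 6 h limits this test, and 0 members were called with DESeq2 as well. Among the 90 other chaperone genes tested, 0 were called by edgeR or DESeq2 and 4 had an unadjusted edgeR p under 0.05.

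Among themselves, the members did not follow a common course over the 8 libraries. Hsph1 and Bag3 ran opposite to each other with a Pearson r of -0.87 over log2 CPM, Hsp90aa1 and Hspd1 ran together with 0.783, and Hspa2 ran with Hspe1 at 0.701 and with Bag3 at 0.685. These 8 points share their scaling and hold 2 times and 2 treatments, so the values are descriptions. The non-member genes most like Hspa2 in log2 CPM were Ebpl (r = 0.969), Pheta1 (0.951) and Slc49a4 (0.946), and those most like Hspa1b were Gm7803 (0.966), Nrbp2 (0.966) and Gm11604 (0.961). Control replicate 3 at 9 h, where Hspa1b was 3.53 times the next library and 82 genes were raised, weighs heavily in the Hspa1b values. They were not computed without it, so no shared course is read from them.

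Beyond the 10 genes, few of 96 other chaperone genes in 8 lists were called with 10panx1 at 9 h. Of 89 tested, 2 rose and 1 fell by edgeR, which is 3.37% beside 9.21% of all genes, and the median log2 fold change was 0.01. The 10 genes set apart were chosen with this contrast in view, and 4 of the 9 tested among them were called. The smaller share among the other genes is therefore not read as a lower rate among chaperones. No member was called among 6 other Hsp70 and Hsp110 genes, 19 Hsp90 and co-chaperone genes, 7 exchange factors and Hsp70 partners, 14 TRiC and prefoldin subunits or 11 other mitochondrial chaperones and proteases. The most abundant tested gene of each had values near 0, with log2 fold changes of -0.03 for Hspa4, 0.05 for Hsp90ab1, 0.01 for St13, 0.00949 for Cct3 and 0.08 for Hspa9, the mitochondrial Hsp70. Dnaja2 and the ubiquitin gene Ubb, the most abundant of their lists, had 0.08 and 0.0071 and were not called either.

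The first of the 3 called genes was Dnajc13, a J protein of endosomes and 1 of 16 J proteins tested. It had 214, 206 and 218 CPM in 10panx1 cells against 184, 179 and 191 CPM in control cells. It rose by 0.21 on the log2 scale (SE 0.0458, edgeR adjusted p = 0.0125), without overlap.

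Hspb7, a small heat shock protein best known from heart and muscle and 1 of 4 tested, had 191, 178 and 187 CPM in 10panx1 cells against 160.0, 170.0 and 163 CPM in control cells. It rose by 0.18 (SE 0.0471, edgeR adjusted p = 0.0297). Hsf2, a heat shock factor related to heat shock factor 1 and 1 of 12 factors and targets tested, had 19.2, 18.3 and 20.1 CPM in 10panx1 cells against 24.9, 24.6 and 23.4 CPM in control cells. It fell by 0.34 (SE 0.0774, edgeR adjusted p = 0.0147), and neither gene overlapped between groups.

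Calls of these 3 genes were lost when any of several libraries was left out, while the estimates moved little. Over 16 alternatives their log2 fold changes ran from 0.184 to 0.229 for Dnajc13, 0.153 to 0.205 for Hspb7 and -0.372 to -0.306 for Hsf2. Without control replicate 1 the edgeR adjusted p was 0.0501 for Dnajc13, 0.118 for Hspb7 and 0.0533 for Hsf2. Without control replicate 2 it was 0.0708 for Dnajc13, 0.0539 for Hspb7 and 0.0626 for Hsf2. Hspb7 also missed the threshold without control replicate 3 (0.0966) or 10panx1 replicate 1 (0.0743) or 3 (0.0903), Dnajc13 without 10panx1 replicate 3 (0.0559) and Hsf2 without 10panx1 replicate 2 (0.0593), all by edgeR's adjusted p. Over all 16 alternatives the adjusted p ran from 0.00181 to 0.0708 for Dnajc13, from 0.0131 to 0.118 for Hspb7 and from 0.00824 to 0.0626 for Hsf2.

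Over time the other chaperones were called about as often as the rest of the table in either direction together, with more risen than fallen. Of 90 tested, 38 rose and 20 fell at 9 h by edgeR, which is 64.4% beside 63.1% of all genes, with a median log2 fold change of 0.07 beside -0.000877 for all genes. By direction, 31.6% of all genes rose and 31.5% fell. Whether the direction differed from that of all genes was not tested. TRiC and prefoldin subunits, which fold actin and tubulin, had 9 risen and 2 fallen of 14, and Hsp90 with its co-chaperones had 6 risen and 6 fallen of 19. The other lists had 3 risen and 2 fallen of 7 Hsp70 and Hsp110 genes, 2 and 1 of 4 small heat shock proteins, 5 and 3 of 16 J proteins, and 3 and 2 of 7 exchange factors and Hsp70 partners. Mitochondrial chaperones and proteases had 5 risen and 2 fallen of 11, and heat shock factors and other targets of heat shock factor 1 had 5 and 2 of 12.

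**Figure D4:**
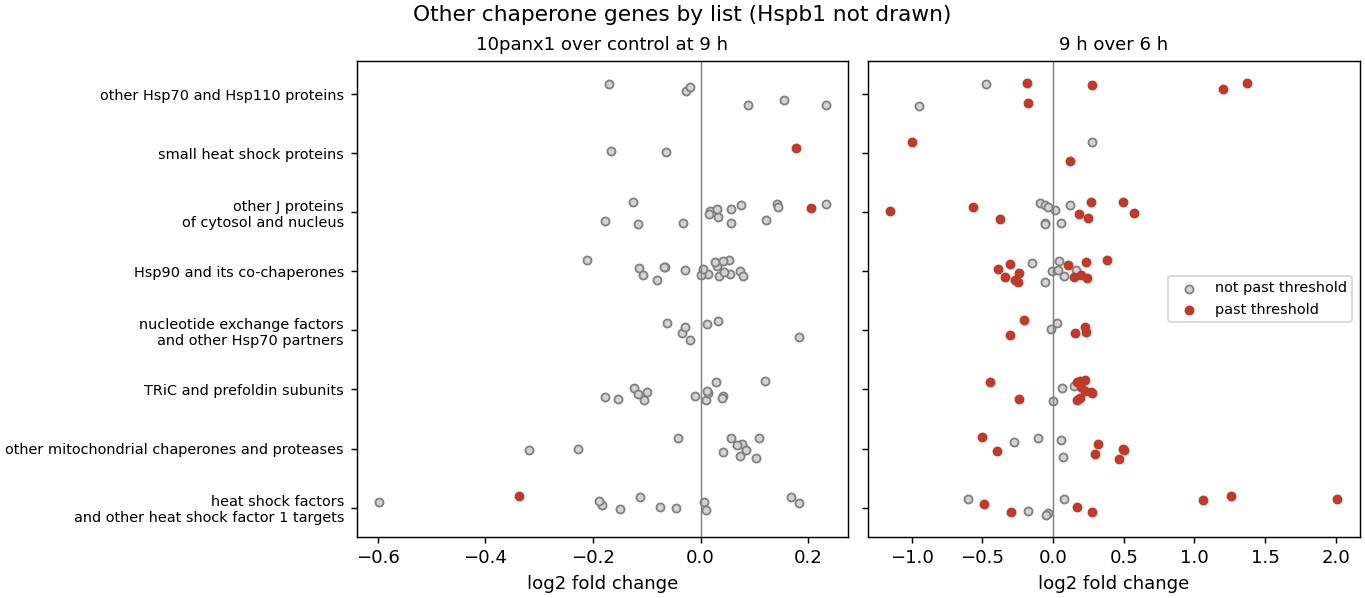
Log2 fold changes of the other chaperone genes by list, 1 point per tested gene, 10panx1 over control at 9 h on the left and 9 h over 6 h on the right, with genes past the edgeR threshold in red and Hspb1 not drawn. On the left 3 genes are red, and on the right red points lie on both sides of 0 in all 8 lists.

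Of the targets and partners of heat shock factor 1, Ier5, whose product promotes the factor's activity, averaged 158 ± 13.1 CPM at 9 h (SD, n = 6) and 65.5 CPM at 6 h (n = 2). It rose by 1.26 on the log2 scale (SE 0.074, edgeR adjusted p = 2.36e-10). Zfand2a, an arsenite-inducible zinc finger protein that associates with proteasomes, averaged 126 ± 13.5 CPM at 9 h and 60.3 CPM at 6 h and rose by 1.06 (edgeR adjusted p = 5.18e-09). Cacybp, a calcyclin-binding protein of the same list, fell by 0.49 (edgeR adjusted p = 7.87e-07), so the list did not move one way.

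Hspa4l, an Hsp110-type relative of Hsph1, averaged 152 ± 17.4 CPM at 9 h (SD, n = 6) and 66.2 CPM at 6 h (n = 2). It rose by 1.2 (SE 0.0856, edgeR adjusted p = 2.85e-09), while Hspa4, another relative, fell by 0.175 (edgeR adjusted p = 0.00128). Among small heat shock proteins Hspb1 had 46, 52 and 74 counts in 10panx1 cells and 60, 54 and 77 counts in control cells at 9 h, and 0 counts in 10panx1 cells and 1 count in control cells at 6 h. The ratio of summed counts, scaled to library size, was 113, with a 95% counting interval from 20.1 to 4470, and edgeR's adjusted p was 4.25e-08, while Hspb6 fell by 0.996 (edgeR adjusted p = 0.000154).

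Changes over time in both directions were also seen among J proteins and mitochondrial genes. The mitochondrial genes named here all rose, while 5 genes of their list rose and 2 fell. Dnajc5, a J protein of secretory vesicles, rose by 0.50, while Dnajc8 fell by 0.57 and Dnajb14, a J protein of the endoplasmic reticulum membrane, fell by 1.15 (edgeR adjusted p at most 5.96e-06). In mitochondria the protease Lonp1 (445 ± 25.8 CPM at 9 h, SD, n = 6, and 314 CPM at 6 h, n = 2) rose by 0.50, the unfoldase Clpx by 0.50 and the disaggregase Clpb by 0.47 (edgeR adjusted p at most 6.06e-07). Fkbp5, a co-chaperone of steroid receptors, rose by 0.39, and the Hsp90-binding phosphatase Ppp5c and Tomm34 fell by 0.34 and 0.30 (edgeR adjusted p at most 5.78e-05). Of the chaperonin ring, Cct5 and Cct6a rose by 0.27 and 0.23, and the prefoldin subunit Pfdn2 fell by 0.45 (edgeR adjusted p at most 0.00027). Hspa13, an Hsp70 of microsomes, and the Hsp70 partners Bag6 and St13 rose by 0.27, 0.225 and 0.16, and the exchange factor Bag2 fell by 0.31 (edgeR adjusted p at most 0.00277). On the TPM scale Bag6 and St13 missed the threshold with 0.12 and 0.05, and Bag2 had -0.14 without the control library at 6 h (edgeR adjusted p = 0.25). Hspb7 rose by 0.12 with overlap (edgeR adjusted p = 0.039) and missed the threshold in 9 of 16 alternatives, among them leaving out either library at 6 h.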

How the data were processed

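Libraries came from mRNA that poly-T beads had purified, made with a strand-preserving kit, per the labels' protocols. Of the deposited tables, 1 holds whole-number read counts per gene, which the authors did not normalize, and 1 holds TPM, which the authors scaled by length and library. The submitters' processing notes list FastQC, Trimmomatic, STAR, featureCounts, DESeq2 and the build GRCm38, with no version or role. The strand setting and the treatment of multi-mapping reads are not given. Of the 10 genes, 0 start in the deposited table where GRCm38 (GENCODE M21) places them, so table coordinates are not printed, and shared 50-base windows were searched in that annotation's transcripts.

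Each table had 57010 rows, of which 151 repeated a symbol and were dropped. Libraries were grouped by title, and replicate pairs differed by more than sampling noise. The main test was edgeR's quasi-likelihood test (version 4.0.16, with limma 3.58.1 under R 4.3.3) on counts, with TMM scaling, filterByExpr and Benjamini-Hochberg adjustment over all tested genes, two-sided, at a threshold of 0.05. Levels are CPM scaled by TMM over all 8 libraries. Ratios at 6 h and correlations used a prior count of 2. As alternatives, scaling and filter were changed, DESeq2 1.42.0 or limma replaced edgeR (limma by voom, or on TPM with a pseudocount of 1 or 0.1), the replicate number was added, and single libraries were left out. Scripts were tested on simulated data. Counting intervals and floors cover counting error only.

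The members, gene lists and tests were chosen with earlier results of these data known. Named genes were the 10 members, up to 3 called genes with the smallest p from each list and comparison, the gene with the highest mean count where fewer than 2 were called, and the 3 genes most like Hspa2 and Hspa1b by Pearson r. Pairs of members with their r were chosen after the values were seen.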

Additional observations from a re-analysis of the deposited data

Results flagged for a closer look

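Hsf2, a heat shock factor, was marked because the 10panx1 difference took opposite directions at the 2 times. At 9 h it had 19.2, 18.3 and 20.1 CPM in 10panx1 cells against 24.9, 24.6 and 23.4 CPM in control cells, and at 6 h it had 23.5 CPM in the 10panx1 library against 20.6 CPM in the control library. The difference at 9 h minus that at 6 h was -0.53 on the log2 scale with an SE of 0.158. Its edgeR p was 0.00522 unadjusted and 0.848 after Benjamini-Hochberg adjustment over all genes, so it did not pass the correction, and the 6 h side rests on 1 library of each treatment.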

How the results depend on the processing

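The count of 3 other chaperone genes called at 9 h was the least stable. It was 5 without a filter on low counts and 0 with limma on log2(TPM + 1) or on log2(TPM + 0.1), where the 3 genes had adjusted p-values from 0.0519 to 0.0594. Leaving out 1 library gave 0 to 3, with 0 without control replicate 1 or 2 and 1 without 10panx1 replicate 3. With the replicate number as a block it was 8. Calls over all genes at 9 h moved likewise, from 1233 as reported to 368 and 371 with the TPM fits, 1850 with the block, 598 and 695 without control replicate 1 or 2, and 676 and 600 without 10panx1 replicate 2 or 3. Same-numbered libraries correlated at 0.0944, -0.00703 and 0.0741 in their deviations from the group means. 10panx1 replicates 1 and 3 were each most like the control of the same number, and 10panx1 replicate 2 was most like control replicate 1 (0.0157). All of these values are small, so they cannot decide whether the numbers pair the samples. The main fits did not use the numbers as pairs. Over time the count was 58, and 42 to 59 when 1 library was left out, and the interaction gave 0 chaperone genes in each alternative run, though 34 genes overall without a filter. No called value changed sign. Hspa2 at 9 h ran from -1.53 to -0.94 over 16 alternatives, and Hspa2, Dnajb1, Hspe1 and Bag3 missed the threshold with both TPM fits, whose cause was not tested. Hspa2, Hspa1b and Hspa1a are limited by depth, with at most 110 counts in a library.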
